A study of Mus musculus with 12 samples.

Results

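Cholesterol and fatty acid synthesis was followed here through 33 listed genes, which cover the mevalonate pathway, the steps from squalene to cholesterol, sterol sensing, fatty acid synthesis and the movement of sterols. A gene was a member if its symbol was on that list, and every probe set that the platform annotation gives 1 such symbol was taken. This gave 75 probe sets for 32 of the 33 genes, out of 18193 genes named on the array, and Acat2 was not analysed here. All 32 genes were above the filter on dim signals and were tested among 12280 genes.

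The study compared mouse embryonic stem cells of the lines CAG150 and HM1 during neuronal differentiation in culture. CAG150 cells carry expanded CAG repeats according to the series title, and HM1 is a stem cell line from a male mouse that lacks working Hprt. The 4 groups were CAG150 cells at day 6, HM1 cells at day 6, CAG150 cells at day 4 and HM1 cells at day 4, each with 3 Affymetrix arrays. Groups were taken from the sample titles, because the descriptions give the earlier day for the HM1 samples titled day 6 and 1 replicate number for all day 6 samples. There was 1 line of each kind, and the labels do not say whether replicate samples came from separate cultures. All p-values therefore reflect the spread among these samples alone, which may be technical.

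Cells make cholesterol from acetyl-CoA through mevalonate, isoprenoid diphosphates, squalene and lanosterol, and fatty acids from the same acetyl-CoA through malonyl-CoA. Both routes are driven by the sterol regulatory element binding proteins (SREBPs), which the escort protein Scap carries out of the endoplasmic reticulum when sterols are low and which the Insig proteins hold back when sterols are high. The mammalian brain makes nearly all of its own cholesterol, and growing neurons need sterols and fatty acids for new membrane.

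The start regions of 5 members are shown as examples of the roles described below, and because they hold the letters that SREBP target promoters are known for, or lack them. Hmgcs1 is an early enzyme of the mevalonate pathway, and Mvd acts later in it. Lss closes the sterol rings, Fasn makes the fatty acid chain, and Abca1 exports cholesterol. Scd1 is not shown. Each is a RefSeq window of GRCm38.p6 from 250 bases before to 50 bases after the annotated start, read along the gene's strand. They lie at chr13:119690101-119690400 on the plus strand (Hmgcs1), chr8:122443373-122443672 on the minus strand (Mvd), chr10:76531355-76531654 on the plus strand (Lss), chr11:120824498-120824797 on the minus strand (Fasn) and chr4:53159846-53160145 on the minus strand (Abca1). Capitals mark CCAAT on either strand, written ATTGG where it lies on the other one, and the sterol regulatory element core TCACNCCAC.
Hmgcs1: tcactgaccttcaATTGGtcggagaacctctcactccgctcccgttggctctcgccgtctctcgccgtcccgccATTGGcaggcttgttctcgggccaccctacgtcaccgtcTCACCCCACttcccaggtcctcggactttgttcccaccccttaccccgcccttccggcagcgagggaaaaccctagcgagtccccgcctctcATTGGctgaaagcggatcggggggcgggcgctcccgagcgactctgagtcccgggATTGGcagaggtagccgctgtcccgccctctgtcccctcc
Mvd: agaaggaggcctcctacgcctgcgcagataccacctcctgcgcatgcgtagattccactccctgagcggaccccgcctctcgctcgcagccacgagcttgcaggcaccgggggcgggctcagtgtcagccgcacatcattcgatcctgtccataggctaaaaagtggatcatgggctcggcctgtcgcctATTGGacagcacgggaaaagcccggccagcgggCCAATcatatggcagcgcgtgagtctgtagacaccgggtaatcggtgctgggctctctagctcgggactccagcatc
Lss: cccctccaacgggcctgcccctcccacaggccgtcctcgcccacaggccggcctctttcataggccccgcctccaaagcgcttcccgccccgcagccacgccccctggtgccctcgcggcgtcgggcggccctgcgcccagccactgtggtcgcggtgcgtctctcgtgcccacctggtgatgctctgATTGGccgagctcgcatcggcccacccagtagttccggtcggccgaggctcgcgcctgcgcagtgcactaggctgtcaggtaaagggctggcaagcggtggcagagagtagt
Fasn: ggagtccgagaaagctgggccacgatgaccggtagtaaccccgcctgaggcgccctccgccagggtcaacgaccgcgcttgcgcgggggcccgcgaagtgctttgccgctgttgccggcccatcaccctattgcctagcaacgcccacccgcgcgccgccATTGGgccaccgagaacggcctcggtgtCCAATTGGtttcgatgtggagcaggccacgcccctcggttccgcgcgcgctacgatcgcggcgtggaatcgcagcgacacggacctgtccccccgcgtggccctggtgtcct
Abca1: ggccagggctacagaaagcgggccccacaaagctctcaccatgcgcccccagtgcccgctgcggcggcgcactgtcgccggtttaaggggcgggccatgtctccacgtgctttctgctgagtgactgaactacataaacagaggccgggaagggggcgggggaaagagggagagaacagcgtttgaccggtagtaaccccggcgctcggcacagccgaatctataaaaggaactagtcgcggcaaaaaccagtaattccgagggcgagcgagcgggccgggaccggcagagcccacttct

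CCAAT is read by the factor NF-Y, a partner of SREBPs, and occurred 4 times in the Hmgcs1 window, 2 times in Mvd, 1 time in Lss, 3 times in Fasn, where 2 of the matches overlap, and 0 times in Abca1. The sterol regulatory element core was found in the Hmgcs1 window, with its first base 137 bases before the start. Windows were held for 25 members, 33 windows in all. CCAAT was in 22 of these windows (66.7%), against 37.4% of all 32851 mouse windows of this length. GGGCGG, the GC box read by Sp1 and searched on both strands, was in 25 member windows (75.8%), against 35.7% of all windows. TCACNCCAC was in 1 member window (3.03%), against 1.24% of all windows. CCAAT was in windows of 21 of the 25 members, so the windows printed are not a sample of them. Hsd17b7, which rose in CAG150 cells, held CCAAT. So did Insig2, Mvk, Srebf2, Tm7sf2, Ebp and Npc2, which did not fall in either line. Scap fell in both lines, and its windows held no CCAAT. Whether CCAAT goes with the direction of change was not tested. A match of letters is a description and does not show binding.

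Signals are given as intensities on a linear scale, of the brightest probe set of a gene unless another is named. Differences are of log2(intensity + 16) ± SE from a limma fit over all arrays. A gene passed a comparison when its p, adjusted over the 12280 genes by the Benjamini-Hochberg method, was under 0.05. Array medians lay between 19.2 and 25.9, and arrays of a group correlated at 0.990 to 0.993. Htt, the gene that carries CAG repeats in Huntington's disease, averaged 65.1 ± 6.52 in CAG150 and 132 ± 22.1 in HM1 cells at day 6 (SD, n = 3 each), and its probe set does not measure repeat length.

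Markers of several cell types moved with the groups. The summed intensity of 12 neuron genes averaged 16943 in CAG150 and 12289 in HM1 cells at day 6, against 3002 in CAG150 and 4051 in HM1 cells at day 4. The lower CAG150 sum at day 4 follows 1 neuron gene, Stmn2, singled out after its values were seen, with 607 in CAG150 and 2108 in HM1 cells. At day 4, 10 of the 12 neuron genes had a positive line difference, 6 passed as higher and 1, Stmn2, as lower in CAG150 cells, with a median of 0.31, and at day 6, 9 were higher and 0 lower. The sum of 10 pluripotent stem cell genes was 3795 in CAG150 and 5332 in HM1 cells at day 6, against 2721 and 4162 at day 4. Most of it was Sox2, with 2803 in CAG150 and 2972 in HM1 cells at day 6, against 2163 and 2521 at day 4. Of the 10 pluripotent stem cell genes 6 were lower and 0 higher in CAG150 cells on each day, and 5 rose and 1 fell between the days in CAG150 cells and 4 rose and 1 fell in HM1 cells. For 9 of 10 neural progenitor genes, which also include Sox2, the sum was 22504 in CAG150 and 21715 in HM1 cells at day 6, against 11343 and 10062 at day 4. Of these 9 genes 8 rose and 1, Sox1, fell between the days in each line. Sox1 averaged 619 in CAG150 and 514 in HM1 cells at day 6, against 1115 and 1353 at day 4. In CAG150 cells 2 of the 9 were higher and 1 lower at day 6, and 2 were higher and 0 lower at day 4. The sum of 10 of 12 fibroblast and smooth muscle genes was 546 in CAG150 and 6267 in HM1 cells at day 6, against 1108 and 5170 at day 4. In HM1 cells most of it was Acta2 and Tagln, with 2890 and 1762 at day 6, against 1608 and 1382 at day 4. Of these 10 genes 7 were lower and 0 higher in CAG150 cells on each day, and 2 had a positive difference at day 4. Between the days 7 fell and 0 rose in CAG150 cells, and 4 rose and 4 fell in HM1 cells. For 8 of 14 endoderm genes the sum was 1002 in CAG150 and 2640 in HM1 cells at day 6, against 831 and 2253 at day 4, and the defining endoderm genes Afp, Ttr and Sox7 were below the filter. Most of this sum was Sparc, with 753 in CAG150 and 1945 in HM1 cells at day 6, against 477 and 1421 at day 4. The part of these cell types in the results that follow was not tested. In such mixed samples, fewer cells of a type and less RNA per cell cannot be told apart.

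At day 6 more of the lipid genes were lower than higher compared with day 4 in both lines. In CAG150 cells 14 of the 32 genes were lower at day 6 (43.8%) and 3 were higher (9.38%), where 21.9% of all genes tested were lower and 22.5% higher. HM1 cells had 23 lower genes (71.9%) and 2 higher ones (6.25%), where 18.5% of all genes were lower and 20.4% higher. The median difference between the days over the members was -0.18 in CAG150 cells, and it was -0.41 in HM1 cells. Over all genes it was 0.00027 and -0.0042 in these comparisons. All 14 genes that fell in CAG150 cells also fell in HM1 cells, which makes 43.8% of the members and compares with 13.8% of all genes. Abca1 rose in both lines. The arrays of the days did not overlap for 16 lower and 5 higher members in CAG150 cells, where this held for 27.6% and 27.4% of all genes. In HM1 cells it held for 23 lower and 5 higher members, against 24.3% and 24.8% of all genes. With each array centred on its median, 1 member was higher and 15 were lower in CAG150 cells, and 2 and 23 in HM1 cells. With each array left out in turn, 10 of the 17 calls in CAG150 cells and 18 of the 25 in HM1 cells held. Those lost without at least 1 array were Fdft1, Cyp51, Insig1, Scap, Acaca, Fasn and Elovl6 in CAG150 cells (adjusted p of up to 0.136) and Hmgcs1, Fdft1, Sc5d, Srebf1, Scd2, Stard4 and Npc1 in HM1 cells (up to 0.149).

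**Figure D1:**
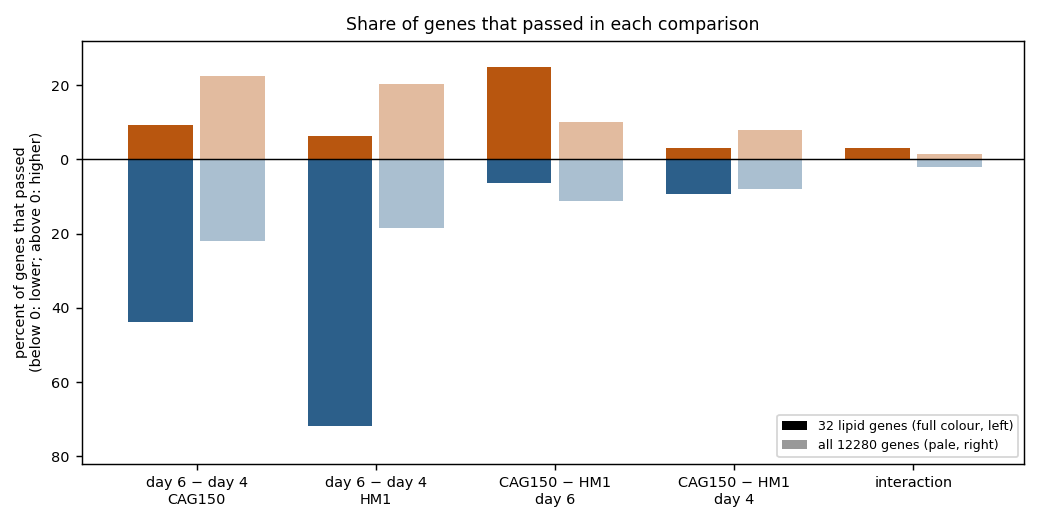
Percent of genes that passed (limma, adjusted p under 0.05) in each of 5 comparisons, higher above the zero line and lower below it, for the 32 lipid genes (full colour, left bar) and for all genes tested (pale, right bar). The bars of lower genes reach 43.8% in CAG150 and 71.9% in HM1 cells between the days, against 21.9% and 18.5% of all genes.

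The mevalonate pathway, which turns acetyl-CoA into farnesyl diphosphate, had 6 genes, and 4 fell in CAG150 and 5 in HM1 cells, where 21.9% and 18.5% of all genes fell. Idi1, which isomerises isopentenyl diphosphate, gave 1360, 1361 and 1337 in CAG150 and 1383, 1551 and 1367 in HM1 cells at day 6, against 2089, 1971 and 1825 in CAG150 and 2446, 2353 and 2172 in HM1 cells at day 4. In each line every day 6 array was below every day 4 array. Idi1 was 1.44-fold lower at day 6 in CAG150 cells (log2 difference -0.53 ± 0.09, adjusted p = 0.000292) and 1.61-fold lower in HM1 cells (-0.69 ± 0.09, adjusted p = 4.5e-05).

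Fdps, farnesyl diphosphate synthase, gave 1644, 1748 and 1582 in CAG150 and 1414, 1362 and 1373 in HM1 cells at day 6, against 2282, 2300 and 2459 in CAG150 and 2295, 2324 and 2366 in HM1 cells at day 4. The lines overlapped at day 4 and did not overlap at day 6, where CAG150 cells were higher. Fdps fell by 0.50 ± 0.07 in CAG150 cells (adjusted p = 0.000153) and by 0.74 ± 0.07 in HM1 cells (adjusted p = 7.72e-06). At day 6 it was 1.20-fold higher in CAG150 than in HM1 cells (0.26 ± 0.07, adjusted p = 0.0262), a call that was lost without 1 array in 5 of 12 cases, the weakest being 0.22 without CAG150 day 6 array 2 (adjusted p = 0.0903).

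Mvd, mevalonate diphosphate decarboxylase, gave 196, 246 and 256 in CAG150 and 194, 189 and 199 in HM1 cells at day 6, against 386, 394 and 364 in CAG150 and 356, 400 and 308 in HM1 cells at day 4. The days did not overlap in either line, and the lines overlapped on both days. It fell by 0.68 ± 0.11 in CAG150 cells (adjusted p = 0.000311) and by 0.81 ± 0.11 in HM1 cells (adjusted p = 0.000107). Pmvk, phosphomevalonate kinase, averaged 251 ± 8.33 in CAG150 and 256 ± 7.81 in HM1 cells at day 6, against 365 ± 3.94 and 414 ± 27.9 at day 4 (SD, n = 3 each). It fell by 0.51 ± 0.08 and 0.66 ± 0.08 in CAG150 and HM1 cells (adjusted p = 0.000152 and 2.65e-05).

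Hmgcs1, cytosolic HMG-CoA synthase, gave 5089, 5353 and 5198 in CAG150 and 4698, 4726 and 4376 in HM1 cells at day 6, against 4837, 4659 and 4462 in CAG150 and 6015, 5726 and 5074 in HM1 cells at day 4. By the brightest probe set, CAG150 arrays were all above the HM1 arrays at day 6 and all below them at day 4. In each of its other probe sets the lines overlapped at day 4. It fell in HM1 cells (-0.28 ± 0.08, adjusted p = 0.0183), while the CAG150 value was 0.16 ± 0.08 (adjusted p = 0.132). Without HM1 day 4 array 1 the HM1 value was -0.23 with an adjusted p of 0.0712. The line differences were 0.18 ± 0.08 at day 6 (adjusted p = 0.151) and -0.27 ± 0.08 at day 4 (adjusted p = 0.05005), and neither passed. Mvk, mevalonate kinase, passed in no comparison, with day differences of -0.21 ± 0.13 in CAG150 and -0.23 ± 0.13 in HM1 cells (adjusted p = 0.210 and 0.171).

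**Figure D2:**
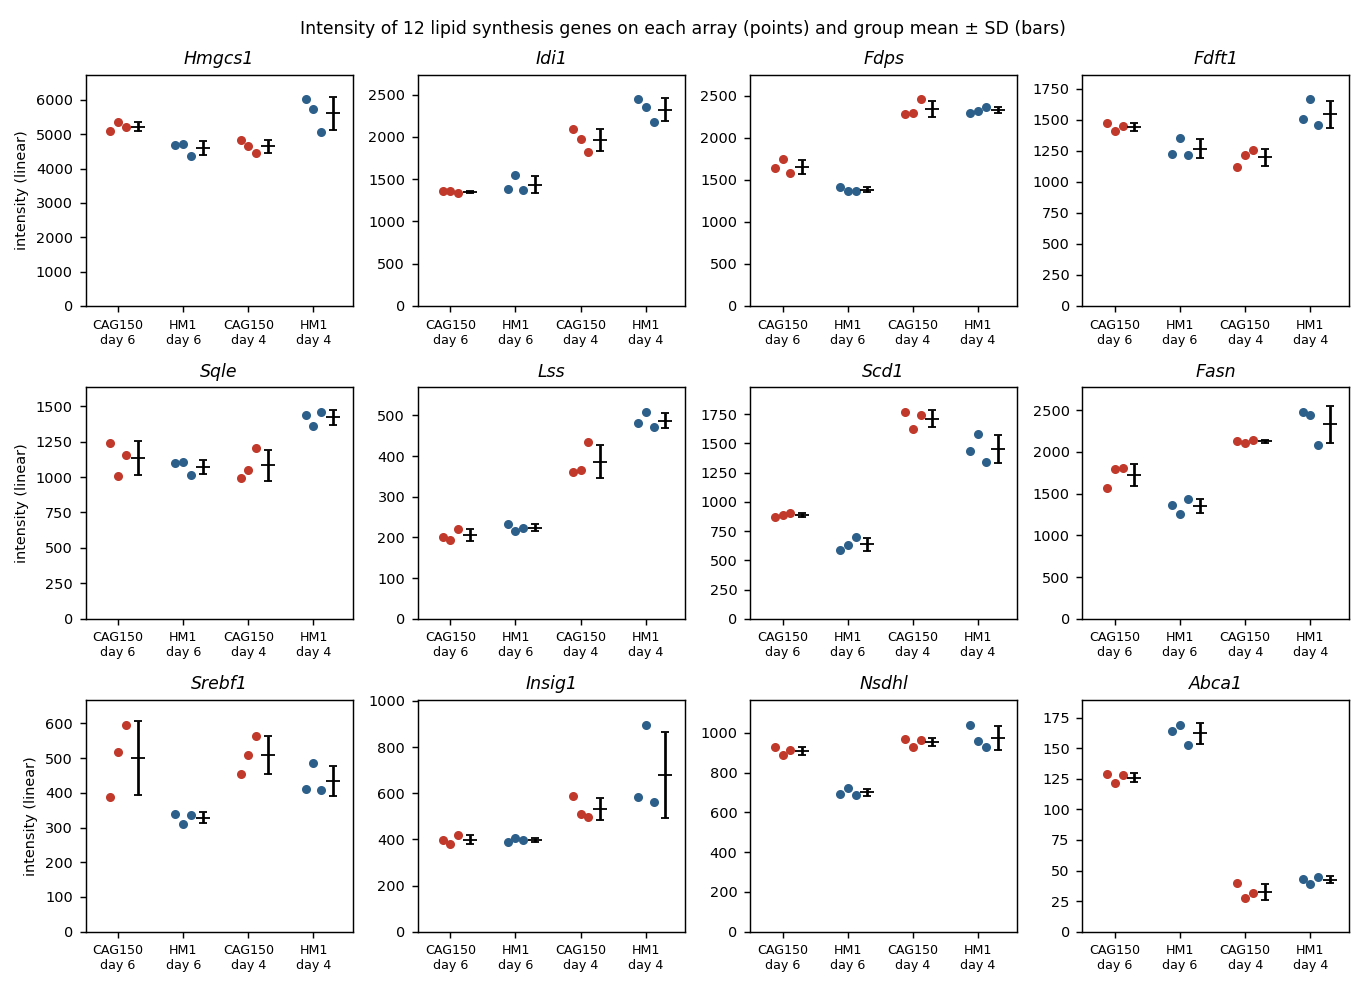
Intensity on a linear axis of 12 lipid genes, each by its brightest probe set, on each array (points) for CAG150 and HM1 cells at day 6 and day 4, with the group mean ± SD of 3 arrays (bars). Idi1, Fdps, Lss and Scd1 are lower at day 6 in both lines, Fdft1 and Hmgcs1 are below HM1 in CAG150 cells at day 4 and above it at day 6, and Abca1 is higher at day 6 in both lines.

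From squalene to cholesterol 11 genes were tested, and 4 fell and 2 rose in CAG150 cells, while 8 fell and 0 rose in HM1 cells. Of all genes 21.9% fell and 22.5% rose in CAG150 cells, and 18.5% fell and 20.4% rose in HM1 cells, so the share that rose in CAG150 cells (18.2%) was near that of all genes. The first of them showed opposite changes in the lines. Fdft1, squalene synthase, which commits farnesyl diphosphate to sterols, gave 1470, 1408 and 1449 in CAG150 and 1224, 1353 and 1218 in HM1 cells at day 6, against 1119, 1217 and 1254 in CAG150 and 1506, 1664 and 1457 in HM1 cells at day 4. The arrays of the lines did not overlap on either day, with CAG150 above HM1 at day 6 and below it at day 4. Fdft1 rose by 0.27 ± 0.08 in CAG150 cells (adjusted p = 0.0212) and fell by 0.28 ± 0.08 in HM1 cells (adjusted p = 0.0184), values that were 0.22 without CAG150 day 4 array 1 (adjusted p = 0.0841) and -0.23 without HM1 day 4 array 2 (adjusted p = 0.0677). The interaction, the day change in CAG150 minus that in HM1 cells, was 0.55 ± 0.12 (adjusted p = 0.0244). At day 4 Fdft1 was 1.28-fold lower in CAG150 cells (-0.36 ± 0.08, adjusted p = 0.0120), and its day 6 difference of 0.19 ± 0.08 did not pass (adjusted p = 0.135).

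Sqle, squalene epoxidase, gave 1238, 1004 and 1159 in CAG150 and 1097, 1103 and 1015 in HM1 cells at day 6, against 996, 1049 and 1206 in CAG150 and 1441, 1362 and 1457 in HM1 cells at day 4. The 3 HM1 arrays at day 4 stood above the other 9 arrays. Sqle fell in HM1 cells (-0.40 ± 0.10, adjusted p = 0.00656), and the CAG150 value was 0.06 ± 0.10 (adjusted p = 0.631). At day 4 it was 1.31-fold lower in CAG150 than in HM1 cells (-0.39 ± 0.10, adjusted p = 0.0185), and the interaction of 0.47 ± 0.14 did not pass (adjusted p = 0.101).

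Lss, lanosterol synthase, which closes the sterol rings, gave 201, 195 and 222 in CAG150 and 232, 217 and 224 in HM1 cells at day 6, against 360, 365 and 434 in CAG150 and 482, 508 and 471 in HM1 cells at day 4. Its day 6 arrays were all below its day 4 arrays. Lss was 1.81-fold lower at day 6 in CAG150 cells (-0.85 ± 0.09, adjusted p = 9.05e-06) and 2.09-fold lower in HM1 cells (-1.07 ± 0.09, adjusted p = 1.81e-06). At day 4 it was 1.25-fold lower in CAG150 than in HM1 cells (-0.33 ± 0.09, adjusted p = 0.0269). This call was lost without a filter, with the mean of probe sets, in the fit over all probe sets and with the compared groups alone.

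Nsdhl, an X-linked dehydrogenase that helps to strip methyl groups from the sterol ring, gave 928, 890 and 913 in CAG150 and 691, 723 and 689 in HM1 cells at day 6, against 971, 930 and 963 in CAG150 and 1039, 957 and 927 in HM1 cells at day 4. The 3 HM1 arrays at day 6 stood below the other 9. Nsdhl fell in HM1 cells (-0.46 ± 0.07, adjusted p = 0.000360), and the CAG150 value was -0.07 ± 0.07 (adjusted p = 0.487). It was 1.29-fold higher in CAG150 than in HM1 cells at day 6 (0.37 ± 0.07, adjusted p = 0.00376), and the interaction was 0.40 ± 0.11 (adjusted p = 0.0598).

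Msmo1, the methylsterol monooxygenase that acts with Nsdhl, averaged 1808 ± 33.8 in CAG150 and 1555 ± 82.6 in HM1 cells at day 6, against 2535 ± 135 and 2258 ± 113 at day 4 (SD, n = 3 each). It fell by 0.48 ± 0.08 in CAG150 and 0.53 ± 0.08 in HM1 cells (adjusted p = 0.000336 and 0.000204). Dhcr7, the last reductase of the pathway, fell by 0.42 ± 0.11 and 0.46 ± 0.11 in CAG150 and HM1 cells (adjusted p = 0.00718 and 0.00504). Cyp51, lanosterol demethylase, fell by 0.28 ± 0.08 and 0.50 ± 0.08 (adjusted p = 0.0159 and 0.000515). With the mean of its probe sets the CAG150 value was -0.12 (adjusted p = 0.227). By their brightest probe sets these enzymes kept their order of days in every array, since no day 6 array reached a day 4 array of its line.

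Other late enzymes did not fall together. Hsd17b7, a keto-sterol reductase, rose in CAG150 cells to 287 ± 11.7 at day 6, against 230 ± 11.9 at day 4 (0.30 ± 0.08, adjusted p = 0.00629), and its HM1 value was 0.18 ± 0.08 (adjusted p = 0.0865). The CAG150 call was lost with median centring and with the mean of probe sets. In CAG150 cells its next probe set averaged 117 ± 16.1 at day 6, against 113 ± 20.7 at day 4. The one after gave 87.4 ± 18.8 against 76.4 ± 5.93, and the days overlapped in both. Tm7sf2, a sterol reductase, gave 269, 280 and 260 in CAG150 and 216, 214 and 225 in HM1 cells at day 6, against 237, 234 and 262 in CAG150 and 202, 207 and 193 in HM1 cells at day 4. CAG150 arrays were above HM1 arrays on both days, with differences of 0.28 ± 0.08 at day 6 and 0.26 ± 0.08 at day 4 (adjusted p = 0.0189 and 0.0336). Sc5d, a sterol desaturase, fell in HM1 cells (-0.41 ± 0.13, adjusted p = 0.0241), a call lost without HM1 day 6 array 3 (-0.27, adjusted p = 0.103), and its CAG150 value was -0.32 ± 0.13 (adjusted p = 0.0661). Ebp, a sterol isomerase on the X chromosome, passed in no comparison, and its 4 group means lay between 269 and 306.

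Among the 5 genes of sterol sensing and SREBP action, 2 fell in CAG150 and 3 in HM1 cells, where 21.9% and 18.5% of all genes fell. Insig1, which retains SREBPs in the endoplasmic reticulum and is itself an SREBP target, gave 399, 378 and 421 in CAG150 and 389, 407 and 395 in HM1 cells at day 6, against 588, 511 and 497 in CAG150 and 583, 895 and 561 in HM1 cells at day 4. All day 6 arrays were below all day 4 arrays, and HM1 day 4 array 2 stood far above the rest. Insig1 fell by 0.72 ± 0.15 in HM1 cells (adjusted p = 0.00189) and by 0.40 ± 0.15 in CAG150 cells (adjusted p = 0.0408). The CAG150 call was lost in 9 of 12 cases when 1 array was left out, the weakest being -0.33 without CAG150 day 4 array 1 (adjusted p = 0.136).

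Srebf1, the SREBP gene tied mainly to fatty acid synthesis, gave 387, 519 and 595 in CAG150 and 338, 309 and 337 in HM1 cells at day 6, against 455, 510 and 564 in CAG150 and 412, 485 and 407 in HM1 cells at day 4. The lines overlapped at day 4 and not at day 6. Srebf1 was 1.48-fold higher in CAG150 than in HM1 cells at day 6 (0.56 ± 0.14, adjusted p = 0.0121), and without CAG150 day 6 array 3 this was 0.43 (adjusted p = 0.0559). It fell in HM1 cells (-0.39 ± 0.14, adjusted p = 0.0442), a call lost in 8 of 12 cases without 1 array (-0.31 without HM1 day 4 array 2, adjusted p = 0.149), and the CAG150 value was -0.04 ± 0.14 (adjusted p = 0.831).

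Scap, the SREBP escort protein, averaged 241 ± 32.2 in CAG150 and 253 ± 37.8 in HM1 cells at day 6, against 329 ± 26.8 and 368 ± 30.3 at day 4 (SD, n = 3 each), and fell by 0.43 ± 0.12 and 0.52 ± 0.12 (adjusted p = 0.0141 and 0.00531). Without CAG150 day 6 array 1 the CAG150 value was -0.32 (adjusted p = 0.0651), so both CAG150 calls in this role were lost without at least 1 array. The Scap call in CAG150 cells was also lost with the mean of probe sets, which takes in a second one below the filter. Srebf2, the SREBP gene tied mainly to cholesterol synthesis, passed in no comparison. Its group means lay between 347 and 361, with day differences of 0.01 ± 0.12 in CAG150 and -0.06 ± 0.12 in HM1 cells (adjusted p = 0.971 and 0.742). Insig2, the second Insig gene, also passed in no comparison, with a day difference of 0.21 ± 0.09 in each line (adjusted p = 0.0600 in CAG150 and 0.0657 in HM1 cells).

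Fatty acid synthesis had 6 genes, of which 4 fell in CAG150 and 6 in HM1 cells, where 21.9% and 18.5% of all genes fell, and 4 were higher in CAG150 than in HM1 cells at day 6, as were 10.1% of all genes. Scd1, a desaturase that makes oleate, gave 870, 886 and 901 in CAG150 and 590, 627 and 700 in HM1 cells at day 6, against 1767, 1627 and 1742 in CAG150 and 1438, 1583 and 1342 in HM1 cells at day 4. No 2 of these 4 groups overlapped. Scd1 was 1.92-fold lower at day 6 in CAG150 cells (-0.94 ± 0.09, adjusted p = 3.97e-06) and 2.25-fold lower in HM1 cells (-1.17 ± 0.09, adjusted p = 8.35e-07). At day 6 it was 1.38-fold higher in CAG150 than in HM1 cells (0.46 ± 0.09, adjusted p = 0.00282), and at day 4 the difference was 0.24 ± 0.09 (adjusted p = 0.0982).

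Fasn, fatty acid synthase, gave 1566, 1790 and 1801 in CAG150 and 1358, 1261 and 1433 in HM1 cells at day 6, against 2127, 2108 and 2145 in CAG150 and 2474, 2438 and 2076 in HM1 cells at day 4. The lines overlapped at day 4 and not at day 6. It fell by 0.31 ± 0.09 in CAG150 cells (adjusted p = 0.0180) and by 0.78 ± 0.09 in HM1 cells (adjusted p = 3.7e-05), and the interaction of 0.47 ± 0.13 did not pass (adjusted p = 0.0775). At day 6 Fasn was 1.27-fold higher in CAG150 than in HM1 cells (0.34 ± 0.09, adjusted p = 0.0206), and without CAG150 day 6 array 3 this was 0.31 (adjusted p = 0.0783).

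Acly, which makes cytosolic acetyl-CoA from citrate, gave 3281, 3664 and 3220 in CAG150 and 2930, 2793 and 2685 in HM1 cells at day 6, against 3424, 3467 and 3518 in CAG150 and 3686, 3761 and 3184 in HM1 cells at day 4. HM1 arrays at day 6 were the lowest. Acly fell in HM1 cells (-0.33 ± 0.09, adjusted p = 0.00979), with a CAG150 value of -0.04 ± 0.09 (adjusted p = 0.767). It was 1.21-fold higher in CAG150 than in HM1 cells at day 6 (0.27 ± 0.09, adjusted p = 0.0458), a call lost in 10 of 12 cases without 1 array (0.21 without CAG150 day 6 array 2, adjusted p = 0.151).

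Scd2, the desaturase most abundant in brain, gave 7497, 6904 and 6779 in CAG150 and 5672, 6095 and 5850 in HM1 cells at day 6, against 6716, 6825 and 7508 in CAG150 and 7183, 7444 and 6426 in HM1 cells at day 4. The HM1 arrays at day 6 stood below the other 9. Scd2 fell in HM1 cells (-0.25 ± 0.09, adjusted p = 0.0341) and was 1.20-fold higher in CAG150 than in HM1 cells at day 6 (0.26 ± 0.09, adjusted p = 0.0465), a call lost in 9 of 12 cases without 1 array (0.22 without CAG150 day 6 array 1, adjusted p = 0.148). The fall in HM1 cells was lost in 9 of 23 alternatives, among them quantile normalization and the mean of probe sets. The CAG150 day value of Scd2 was 0.01 ± 0.09 (adjusted p = 0.943).

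Acaca, acetyl-CoA carboxylase, fell by 0.41 ± 0.12 in CAG150 and 0.53 ± 0.12 in HM1 cells (adjusted p = 0.0172 and 0.00441). The CAG150 call of Acaca was lost with the mean of probe sets. Its second probe set averaged 46.9 ± 7.19 in CAG150 and 29.5 ± 14.7 in HM1 cells at day 6, against 55.5 ± 7.05 and 34.0 ± 11.8 at day 4. The days overlapped in both lines there. Elovl6, which lengthens palmitate to stearate, fell by 0.42 ± 0.12 and 0.58 ± 0.12 (adjusted p = 0.0120 and 0.00202), to 480 ± 41.4 in CAG150 and 511 ± 63.7 in HM1 cells at day 6, against 647 ± 48.2 and 772 ± 98.2 at day 4 (SD, n = 3 each). Neither gene differed between the lines past the threshold, with values of 0.24 ± 0.12 for Acaca and -0.08 ± 0.12 for Elovl6 at day 6 (adjusted p = 0.193 and 0.674).

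**Figure D3:**
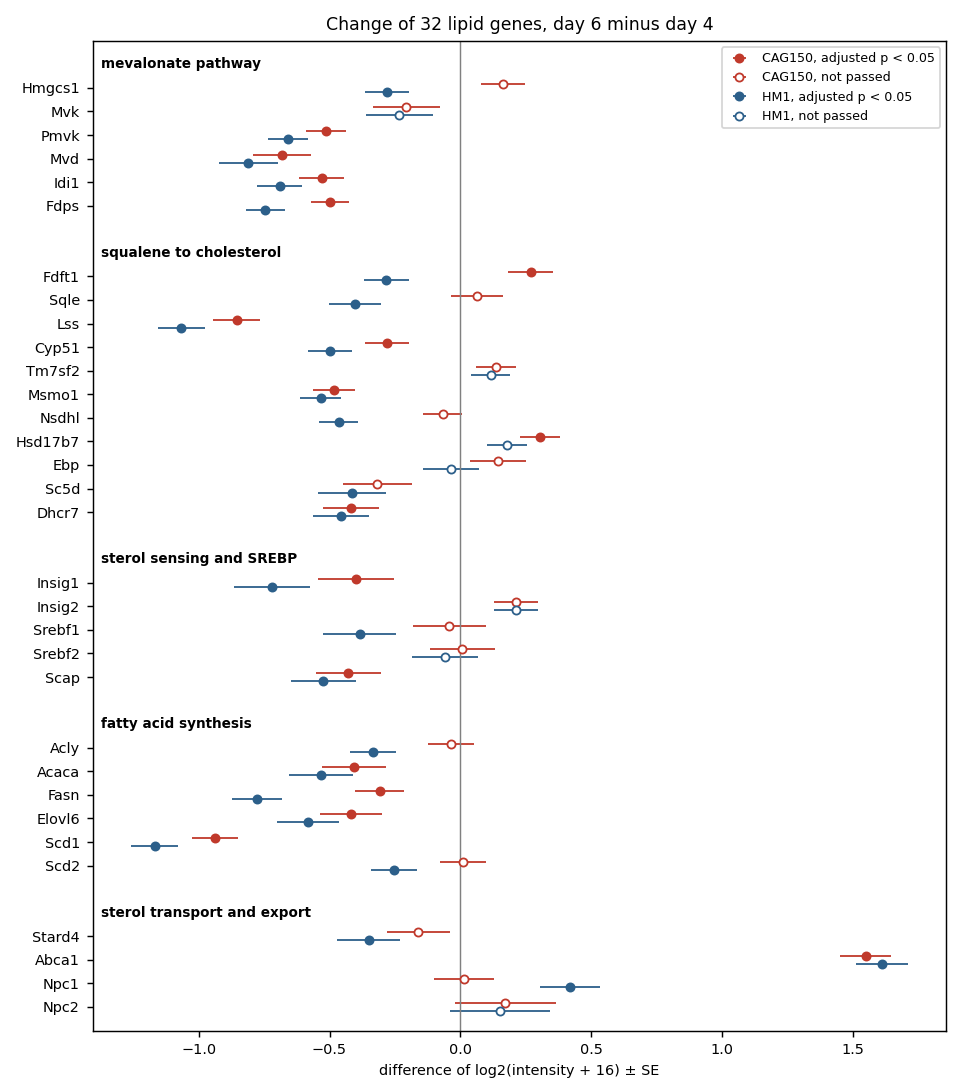
Difference of log2(intensity + 16) ± SE, day 6 minus day 4, for 32 lipid genes in CAG150 cells (red) and HM1 cells (blue), filled where the gene passed. Most points lie left of 0, with medians of -0.18 in CAG150 and -0.41 in HM1 cells, and Abca1 lies farthest right at 1.55 and 1.61.

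Of the 4 genes of sterol transport and export, 1 rose and 0 fell in CAG150 cells (25% and 0%). In HM1 cells 2 rose and 1 fell (50% and 25%). Of all genes 22.5% rose and 21.9% fell in CAG150 cells, and 20.4% rose and 18.5% fell in HM1 cells. Only Abca1 rose in both lines. Abca1, which loads cholesterol onto apolipoproteins at the cell surface and is a target of the liver X receptors, gave 129, 121 and 128 in CAG150 and 164, 169 and 153 in HM1 cells at day 6, against 39.96, 27.1 and 31.3 in CAG150 and 43.4, 39.0 and 44.6 in HM1 cells at day 4. Every day 6 array was above every day 4 array. Abca1 was 2.92-fold higher at day 6 in CAG150 cells (1.55 ± 0.10, adjusted p = 1.05e-07) and 3.05-fold higher in HM1 cells (1.61 ± 0.10, adjusted p = 9.86e-08). These folds are on the scale with 16 added, which understates changes of low signals. The CAG150 value was 1.93 with a pseudocount of 1, 0.97 with a pseudocount of 64 and 0.89 with the mean of probe sets, and the HM1 value 1.91, 1.09 and 0.96. At day 6 it was 1.25-fold lower in CAG150 than in HM1 cells (-0.33 ± 0.10, adjusted p = 0.0315), a call lost in 5 of 12 cases without 1 array (-0.30 without HM1 day 6 array 2, adjusted p = 0.0934).

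Npc1, which moves cholesterol out of late endosomes, gave 97.7, 104 and 95.7 in CAG150 and 141, 149 and 118 in HM1 cells at day 6, against 115, 86.3 and 94.6 in CAG150 and 98.8, 85.4 and 108 in HM1 cells at day 4. The HM1 arrays at day 6 were above the other 9. Npc1 rose in HM1 cells (0.42 ± 0.11, adjusted p = 0.0121), while the CAG150 value was 0.01 ± 0.11 (adjusted p = 0.937), and it was 1.31-fold lower in CAG150 than in HM1 cells at day 6 (-0.39 ± 0.11, adjusted p = 0.0278). Without HM1 day 6 array 2 the line difference was -0.33 (adjusted p = 0.0992).

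Stard4, a soluble sterol carrier, gave 475, 410 and 461 in CAG150 and 377, 447 and 318 in HM1 cells at day 6, against 540, 446 and 527 in CAG150 and 495, 454 and 508 in HM1 cells at day 4. The lines overlapped on both days, and the days did not overlap in HM1 cells. It fell in HM1 cells (-0.35 ± 0.12, adjusted p = 0.0355), and without HM1 day 6 array 3 this was -0.23 (adjusted p = 0.149). The CAG150 value was -0.16 ± 0.12 (adjusted p = 0.306). Npc2, the soluble partner of Npc1, passed in no comparison by its brightest probe set, whose CAG150 day 4 arrays gave 2495, 2350 and 4137, so 1 array stood apart. Its second probe set gave 2337, 2421 and 2208 in CAG150 and 2813, 2965 and 3062 in HM1 cells at day 6, against 2127, 2206 and 2287 in CAG150 and 2273, 2380 and 2233 in HM1 cells at day 4. The HM1 arrays at day 6 were above the other 9, as for Npc1. In the fit over all probe sets described below it rose in HM1 cells (0.36 ± 0.08, adjusted p = 0.00721), with a CAG150 value of 0.07 ± 0.08 (adjusted p = 0.546), and was lower in CAG150 than in HM1 cells at day 6 (-0.34 ± 0.08, adjusted p = 0.0177).

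Between the lines at day 6, more of the lipid genes were higher than lower in CAG150 cells. There 8 of the 32 genes were higher in CAG150 cells (25.0%) and 2 were lower (6.25%), where 10.1% of all genes were higher and 11.2% lower. Of 32 members 24 had a positive difference, with a median of 0.10 beside -0.0020 over all genes. The lines did not overlap for 12 higher and 3 lower members, against 18.8% and 19.8% of all genes. Of the 10 genes that passed, Nsdhl and Scd1 did so with each array left out in turn, and the other 8 were lost without at least 1 array. With each array centred on its median, 3 members were higher and 2 lower. At day 4, 1 gene was higher (3.12%) and 3 were lower (9.38%), where 7.87% of all genes were higher and 7.92% lower, so the members' share was near or below that of all genes. The members' median at day 4 was -0.02 beside 0.0051 over all genes, and each of the 4 calls, Fdft1, Sqle, Lss and Tm7sf2, was lost without at least 1 array. The weakest values were -0.31 for Fdft1, -0.33 for Sqle and -0.28 for Lss without CAG150 day 4 array 1 (adjusted p = 0.0515, 0.0741 and 0.0981), and 0.22 for Tm7sf2 without CAG150 day 4 array 3 (adjusted p = 0.116). With median centring, 0 members were higher and 6 lower at day 4.

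The median line difference over the genes of chromosomes 8 and 11 was above 0 on both days. At day 4 it was 0.20 on chromosome 8 and 0.17 on chromosome 11, and at day 6 it was 0.24 over 671 genes of chromosome 8 and 0.23 over 1007 genes of chromosome 11, while the other 17 autosomes had medians between -0.06 and -0.01 at day 6. The 6 members there, Mvd and Msmo1 on chromosome 8 and Srebf1, Acly, Acaca and Fasn on chromosome 11, had a median of 0.26 at day 6, with 3 higher and 0 lower. At day 4 their median was 0.11 and 0 of them passed, with values of -0.13 for Fasn and -0.03 for Acly by its brightest probe set. The next Acly probe set averaged 3115 ± 301 in CAG150 and 2791 ± 181 in HM1 cells at day 4. The one after gave 1300 ± 16.2 and 1225 ± 87.2. Acaca's second probe set averaged 55.5 ± 7.05 in CAG150 and 34.0 ± 11.8 in HM1 cells at day 4 (SD, n = 3 each). Over the other 26 members the median at day 6 was 0.05, with 5 higher and 2 lower. Over genes of all chromosomes 10.1% were higher and 11.2% lower at day 6. The shares within chromosomes 8 and 11 and within the others were not counted, so neither member count can be set against its own background. For Srebf1, Acly and Fasn a line difference at day 6 and a shift of the whole chromosome cannot be told apart here. Scd1 and Scd2 lie on chromosome 19, Fdps on chromosome 3 and Nsdhl on the X chromosome.

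**Figure D4:**
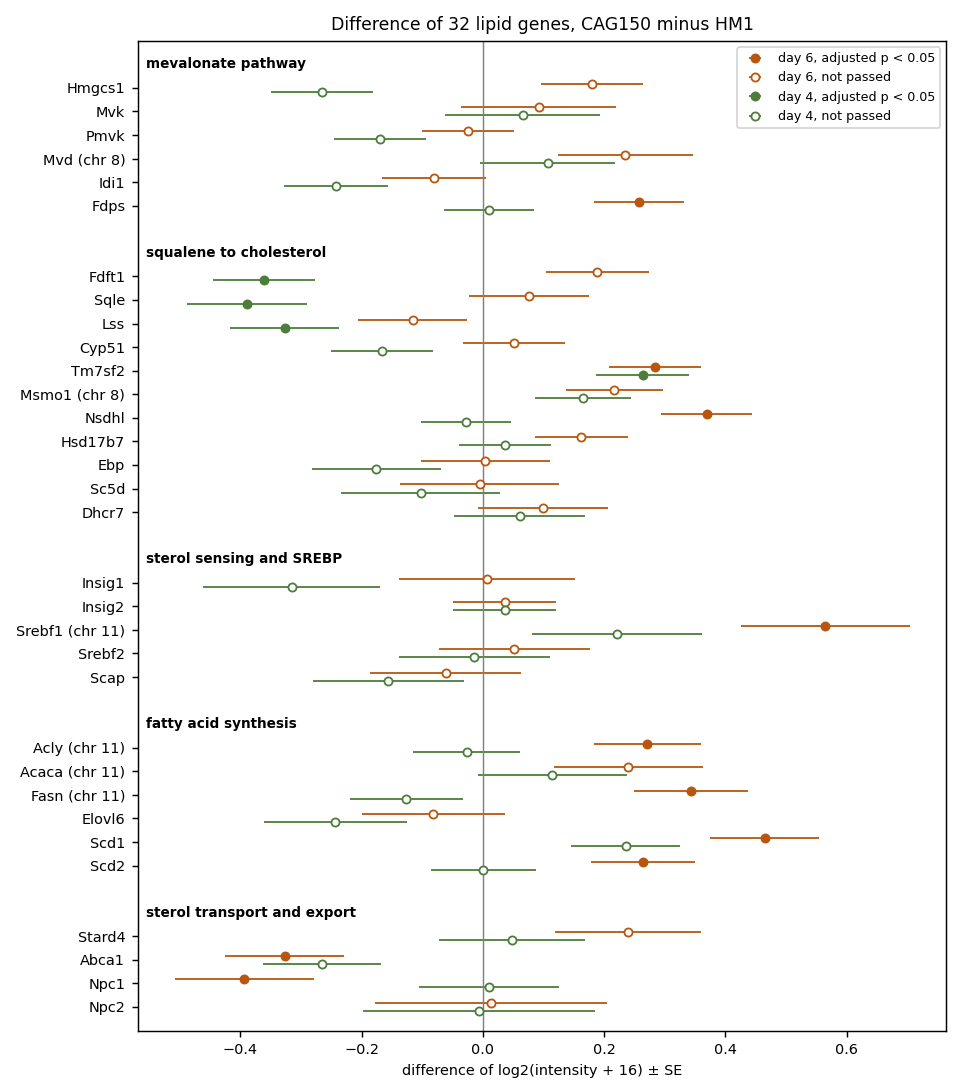
Difference of log2(intensity + 16) ± SE, CAG150 minus HM1, for 32 lipid genes at day 6 (orange) and day 4 (green), filled where the gene passed, with members on chromosomes 8 and 11 marked. At day 6, 8 genes passed to the right of 0 and 2, Abca1 and Npc1, to the left, and at day 4 Fdft1, Sqle and Lss passed to the left and Tm7sf2 to the right.

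The interaction asks whether the change between the days differed between the lines. It was positive for 29 of 32 members (90.6%), against 48.6% of all genes, with a median of 0.16 beside -0.0075 over all genes. Only Fdft1 passed, as 1 higher member (3.12%) with 0 lower, where 1.58% of all genes were higher and 2.03% lower, so for the other 31 members a difference between the lines in the day change was not shown. The next members by adjusted p were Nsdhl at 0.0598, Hmgcs1 at 0.0600 and Fasn at 0.0775. Npc1 had the lowest value, -0.40 ± 0.16 (adjusted p = 0.230). This comparison uses the same arrays as the others.

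Several members have more than 1 probe set, and these did not always agree. In a fit over all 27022 probe sets above the filter, 66 member probe sets were tested, and 31 fell and 5 rose between the days in HM1 cells, where 27.8% of all probe sets passed. In CAG150 cells 15 fell and 6 rose, where 33.5% of all passed. Between the lines at day 6, 8 were higher and 2 lower in CAG150 cells, where 14.5% of all passed, and in the interaction 1 member probe set passed, where 1.54% of all did. Both bright Fdft1 probe sets rose in CAG150 and fell in HM1 cells, and the interaction in this fit was 0.68 ± 0.13 (adjusted p = 0.0219) for the second and 0.55 ± 0.13 (adjusted p = 0.0599) for the brightest. All 5 Hmgcs1 probe sets had HM1 day differences between -0.38 and -0.28, and 4 of them passed. In all 5 the CAG150 arrays were above the HM1 arrays at day 6. At day 4 only the brightest had all CAG150 arrays below the HM1 arrays. The next gave 5014, 4878 and 4471 in CAG150 and 6089, 5624 and 4743 in HM1 cells at day 4. The dimmest averaged 59.7 ± 10.1 in CAG150 and 54.3 ± 4.68 in HM1 cells there.

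Both bright Mvd probe sets fell in HM1 cells, and the second had -0.55 ± 0.13 (adjusted p = 0.00888), but in CAG150 cells it had -0.28 ± 0.13 (adjusted p = 0.132). The fall of Cyp51 in CAG150 cells rests on its brightest probe set, since the others had -0.11 ± 0.11 and 0.05 ± 0.10 there (adjusted p = 0.466 and 0.748), while all 3 fell in HM1 cells. The next Elovl6 probe set had a CAG150 value of -0.26 ± 0.13 (adjusted p = 0.155), and the next Sc5d probe set an HM1 value of -0.13 ± 0.09 (adjusted p = 0.299). In CAG150 cells this Sc5d probe set averaged 247 ± 9.21 at day 6, against 209 ± 9.12 at day 4. The days did not overlap there, and the direction was opposite to that of the brightest. In HM1 cells it averaged 202 ± 14.4 at day 6, where the lines did not overlap.

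For Lss the fall rests on the brightest probe set. The next one averaged 218 ± 5.86 in CAG150 and 169 ± 6.28 in HM1 cells at day 6, against 209 ± 37.5 and 215 ± 15.1 at day 4, with day differences of 0.07 ± 0.12 in CAG150 and -0.32 ± 0.12 in HM1 cells (adjusted p = 0.701 and 0.0618). Scd1's second probe set fell by 0.95 ± 0.11 in CAG150 and 0.82 ± 0.11 in HM1 cells (adjusted p = 2.74e-05 and 0.000126), but its line difference at day 6 was 0.27 ± 0.11 (adjusted p = 0.114). Scd2's second probe set had a line difference of 0.59 ± 0.10 at day 6 (adjusted p = 0.00155), larger than that of the brightest. At day 4 the line difference was 0.24 ± 0.10 for the second and 0.71 ± 0.24 for the third (adjusted p = 0.133 and 0.0867). Neither passed, but in both the CAG150 arrays were above the HM1 arrays at day 4, unlike in the brightest. In CAG150 cells Scd2's second probe set averaged 2975 ± 68.9 at day 6, against 2603 ± 214 at day 4, and the days did not overlap. The third averaged 825 ± 101 against 683 ± 61.5 there, and the days overlapped. In HM1 cells the second averaged 1972 ± 178 at day 6, against 2192 ± 50.8 at day 4, and the third 488 ± 164 against 424 ± 135. Abca1's second probe set rose by 0.72 ± 0.14 and 0.62 ± 0.14 in CAG150 and HM1 cells (adjusted p = 0.00155 and 0.00540). Npc2 also had a dim probe set that rose by 0.77 ± 0.12 in CAG150 and 0.71 ± 0.12 in HM1 cells (adjusted p = 0.000296 and 0.000782), beside the 2 bright ones described above.

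**Figure D5:**
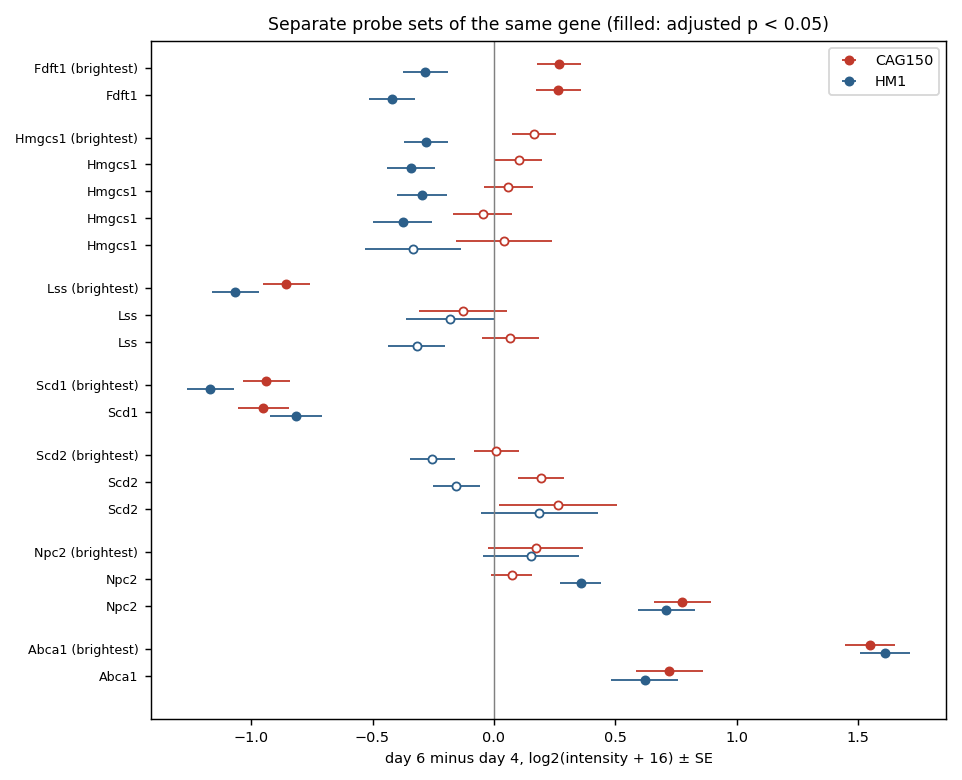
Day 6 minus day 4 difference of log2(intensity + 16) ± SE for each probe set of 7 lipid genes in CAG150 cells (red) and HM1 cells (blue), filled where the probe set passed in the fit over all probe sets. The Fdft1 probe sets lie on opposite sides of 0 in the lines, the Hmgcs1 probe sets fall between -0.38 and -0.28 in HM1 cells, and the strong fall of Lss is seen in its brightest probe set only.

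Further genes of the pathway were read from 4 lists. Of 16 other genes of fatty acid synthesis, elongation and desaturation, 3 rose and 5 fell in CAG150 cells and 2 rose and 5 fell in HM1 cells between the days. These were 18.8% and 31.2% in CAG150 cells, where 22.5% of all genes rose and 21.9% fell, and 12.5% and 31.2% in HM1 cells, where 20.4% rose and 18.5% fell. Mid1ip1, which activates acetyl-CoA carboxylase, fell to 378 ± 21.8 in HM1 cells at day 6, against 749 ± 35.2 at day 4 (-0.96 ± 0.11, adjusted p = 2.02e-05), and its interaction of 0.63 ± 0.15 passed (adjusted p = 0.0397). At day 4 it was lower in CAG150 than in HM1 cells (-0.72 ± 0.11, adjusted p = 0.000686), as were malic enzyme Me1 (-0.57 ± 0.09, adjusted p = 0.00141) and Fads3 (-0.49 ± 0.10, adjusted p = 0.00600). Lpin1, a phosphatidate phosphatase, rose by 0.56 ± 0.10 in each line (adjusted p = 0.000699 in CAG150 and 0.000911 in HM1 cells). The acetyl-CoA synthetase Acss2 rose by 0.56 ± 0.12 in CAG150 and 0.48 ± 0.12 in HM1 cells (adjusted p = 0.00210 and 0.00646). Elovl5, an elongase of polyunsaturated fatty acids, fell by 0.54 ± 0.08 in CAG150 and 0.39 ± 0.08 in HM1 cells (adjusted p = 0.000139 and 0.00210). At day 6 the list had 3 higher (18.8%) and 2 lower genes (12.5%) in CAG150 cells, where 10.1% of all genes were higher and 11.2% lower, led by Tecr of chromosome 8 (0.46 ± 0.09, adjusted p = 0.00443), Acsl3 (0.40 ± 0.12, adjusted p = 0.0270) and the desaturase Fads2 (0.37 ± 0.09, adjusted p = 0.0144).

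Of 11 genes that process SREBPs or degrade sterol-regulated proteins, 1 rose and 2 fell in CAG150 cells and 2 rose and 2 fell in HM1 cells. The shares, 9.09% and 18.2% in CAG150 cells and 18.2% each in HM1 cells, were near or below the 22.5% and 21.9% of all genes that rose and fell in CAG150 cells and the 20.4% and 18.5% in HM1 cells. Sec24d, a coat protein of the vesicles that leave the endoplasmic reticulum, fell by 0.40 ± 0.09 in CAG150 and 0.39 ± 0.09 in HM1 cells (adjusted p = 0.00324 and 0.00480). Mbtps1, the protease that makes the first cut in SREBPs, fell in HM1 cells (-0.49 ± 0.10, adjusted p = 0.00153) and was higher in CAG150 than in HM1 cells at day 6 (0.40 ± 0.10, adjusted p = 0.01004). Erlin2 was higher in CAG150 cells at day 6 (0.47 ± 0.09, adjusted p = 0.00282), and both genes lie on chromosome 8.

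The isoprenoid branch, which leads from farnesyl diphosphate to prenylated proteins, dolichol and ubiquinone, had 9 genes tested. There 1 rose and 1 fell in CAG150 cells, and 3 rose and 1 fell in HM1 cells. The CAG150 shares of 11.1% each lay below the 22.5% and 21.9% of all genes, and the HM1 shares were 33.3% and 11.1%, beside 20.4% and 18.5%. Icmt, the methyltransferase of prenylated proteins, was lower in CAG150 than in HM1 cells at day 6, at 111 ± 11.9 against 168 ± 8.75 (-0.54 ± 0.10, adjusted p = 0.00182), and fell between the days in both lines (-0.72 ± 0.10 in CAG150 and -0.42 ± 0.10 in HM1 cells, adjusted p = 6.78e-05 and 0.00408). Pggt1b, a subunit of a protein prenylation enzyme, rose by 0.44 ± 0.14 and 0.46 ± 0.14 in CAG150 and HM1 cells (adjusted p = 0.0186 and 0.0175).

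Of 14 genes of sterol uptake, storage and transport, 4 rose and 4 fell in CAG150 cells, and 4 rose and 5 fell in HM1 cells. This was 28.6% each in CAG150 cells, beside 22.5% and 21.9% of all genes, and 28.6% and 35.7% in HM1 cells, beside 20.4% and 18.5%. Apoe, the apolipoprotein that accepts cholesterol from Abca1, averaged 62.9 ± 6.75 in CAG150 and 338 ± 8.93 in HM1 cells at day 6, against 232 ± 16.5 and 633 ± 34.2 at day 4 (SD, n = 3 each). It was lower in CAG150 than in HM1 cells on both days (-2.17 ± 0.09 at day 6 and -1.39 ± 0.09 at day 4, adjusted p = 1.25e-08 and 4.92e-07), and it is also 1 of the endoderm genes summed above. Vldlr, a lipoprotein receptor, was higher in CAG150 cells at day 6 (0.74 ± 0.18, adjusted p = 0.0118). Scarb1, which takes up cholesterol from high-density lipoprotein, fell by 0.87 ± 0.15 in CAG150 and 0.81 ± 0.15 in HM1 cells (adjusted p = 0.000440 and 0.00102). Cyp46a1, the neuronal enzyme that hydroxylates cholesterol for removal, rose by 0.68 ± 0.15 and 0.65 ± 0.15 (adjusted p = 0.00216 and 0.00356), and Abcg1, a sterol exporter, rose by 0.89 ± 0.17 in CAG150 cells (adjusted p = 0.00108), with an HM1 value of 0.44 ± 0.17 (adjusted p = 0.0618).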

How the data were processed

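Affymetrix mouse arrays were run on 12 samples, 3 in each of the 4 groups of line and day. The values deposited by the authors are intensities on a linear scale, with the software not given in the sources used here. By the values themselves, each array has the same mean once the top and bottom 2% of probe sets are left out. Arrays differed by at most 0.25 in their log2 medians and 0.19 in their upper quartiles, so no further normalization was made. Of 45101 probe sets 64 controls were left out, 34945 have 1 gene symbol in the platform annotation, 932 have several and 9160 have none here.

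Intensities were taken as log2(intensity + 16). A gene was represented by its brightest probe set by mean, and genes over the 40th percentile of probe sets (4.8 on the log2 scale, intensity 11.9) were kept. Group means came from a linear model of all 12 arrays (limma 3.58.1, R 4.3.3), moderated with eBayes (8 residual and 4.46 prior degrees of freedom), with Benjamini-Hochberg adjusted p-values. The fit was tested on simulated data. The number of arrays limits the precision.

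All members may be named, and of each other list up to 3 genes with the largest fold among those that passed. The members and lists were chosen with earlier results of these data known. Alternatives were 2 other scalings, 2 other filters, 2 other pseudocounts, the mean of probe sets, a fit over all probe sets, the compared groups alone, no genes of chromosomes 8 and 11, a replicate block and each array left out in turn. Promoter windows are RefSeq's, of GRCm38.p6.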

Additional observations from a re-analysis of the deposited data

Results flagged for a closer look

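Squalene synthase Fdft1 was the 1 member whose change between the days differed between the lines by the test of that difference. Its day change in CAG150 minus that in HM1 cells was 0.55 ± 0.12 on the log2 scale (limma, adjusted p = 0.0244). Fdft1 averaged 1442 ± 31.5 in CAG150 and 1265 ± 76.3 in HM1 cells at day 6, against 1197 ± 70.0 in CAG150 and 1542 ± 108 in HM1 cells at day 4 (SD, n = 3 each). The call was lost in 10 of 22 alternatives, 6 of them with 1 array left out, where the adjusted p reached 0.0631 (0.53, without HM1 day 6 array 1). The difference lay between 0.36 and 0.60 under all alternatives.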

How the results depend on the processing

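No gene difference that passed changed direction under an alternative. Of the members' single differences, 1804 of those with 1 array left out kept their side of the threshold, 107 lost their call and 9 gained one. Under the other alternatives these were 1598, 69 and 31. The counts of members that passed moved most between the lines and in the interaction. At day 4 the count was 2 in the fit over all probe sets, without a filter and with the compared groups alone, against 4. At day 6 it was 6 in the fit over all probe sets, 5 with median centring, 5 without a filter and 6 without chromosomes 8 and 11 (26 members, which are fewer by construction), against 10. For the interaction it was 0 with median centring, without a filter, with the mean of probe sets and in the fit over all probe sets, 3 with quantile normalization, 3 with the filter at the 60th percentile and 5 with a pseudocount of 64, against 1. The cause was not tested. The replicate block gave 16 members between the days in CAG150 and 24 in HM1 cells, 9 between the lines at day 6, 4 at day 4 and 1 in the interaction, so it moved no count by over 1.5 times. Same-numbered samples did not deviate together (correlations from -0.13 to 0.12 over 18 pairs, median 0.02), so the numbers were not taken as pairs.

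Median centring moved the median of all genes by -0.10 in both day comparisons. It gave 1 higher and 15 lower members in CAG150 cells between the days, 3 higher and 2 lower between the lines at day 6, and 0 higher and 6 lower at day 4. Quantile normalization gave 11 higher and 2 lower members at day 6.

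With each array left out in turn, 12 to 17 members passed between the days in CAG150 cells, 19 to 25 in HM1 cells, 3 to 10 between the lines at day 6, 1 to 4 at day 4 and 0 to 3 in the interaction. The day 6 count was 6, 4 and 4 without CAG150 array 1, 2 or 3, and 3 without HM1 array 1 or 2. The day 4 count was 1 without CAG150 array 1, CAG150 array 2 or HM1 array 1, and 2 without HM1 array 2. For the interaction it was 0 without array 1 or 2 of CAG150 at day 4, array 1 or 3 of CAG150 at day 6 and array 1 or 3 of HM1 at day 6, and 3 without array 3 of HM1 at day 4. Dim probe sets limit Abca1 at day 4, where its fold depends on the pseudocount and on the probe sets used. Its day difference in CAG150 cells was 0.89 to 1.93 over the alternatives, with 0.89 from the mean of probe sets.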
